A study of Mus musculus with 18 samples.

Results

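The kinesin superfamily was taken as every protein-coding gene whose symbol begins with Kif and a digit, or is Kifc1, Kifc2 or Kifc3. The rule found 42 of the 47311 genes in the deposited tables. By the known roles of their proteins they were placed in 4 classes: 13 mitotic, 15 transport and 6 ciliary kinesins, and 8 others. The last class holds Kif1bp, which is named for binding KIF1 motors and is not itself a motor. PolyA RNA had been sequenced from C2C12 cells, a mouse muscle line that divides as single-nucleus myoblasts and fuses into multinucleate myotubes when it differentiates. Libraries of each stage came from cells given si-Setd2#1 or si-Setd2#2, called siRNA 1 and siRNA 2 below, or the control si-Ctrl. The sample titles do not say whether siRNA was given before or after differentiation. Setd2 encodes the enzyme that trimethylates lysine 36 of histone H3. The 6 groups, in this order, were myotubes with siRNA 1, siRNA 2 and control siRNA, and myoblasts with siRNA 1, siRNA 2 and control siRNA, with 3 libraries labelled as biological replicates in each and 18 in all. The labels' protocols say that cells were stretched just before RNA was taken, which no group varies. All groups are 1 cell line, and a differentiated culture can keep cells that did not fuse.

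Kinesins are motor proteins that bind microtubules and hydrolyse ATP. Mitotic kinesins build the spindle, move and align chromosomes, shorten microtubule ends and organise the midzone where a dividing cell is cut, and their transcripts are made mainly in G2 and M phase. Transport kinesins carry vesicles, endosomes, mitochondria and RNA along microtubules, mostly towards the plus end. In myotubes, conventional kinesin is known for spacing the many nuclei and the mitochondria along the fibre, while a myotube nucleus no longer divides. A comparison of the classes between stages, and with Setd2 depleted, is what the design allows.

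Levels below are CPM, counts scaled to a common library size with TMM over all 18 libraries, for comparing samples within a gene. TPM, which corrects for transcript length, is used wherever genes are set side by side. A gene was called when edgeR's quasi-likelihood test gave an adjusted p under 0.05 over all genes tested. Libraries held 43.5 to 66.6 megareads of estimated counts. Setd2 itself had 58.8, 38.9 and 39.1 CPM in siRNA 1 myotubes, 38.9, 35.9 and 34.4 CPM in siRNA 2 myotubes and 107, 108 and 101 CPM in control myotubes. In myoblasts it had 41.5, 41.5 and 34.4 CPM with siRNA 1, 45.00, 44.05 and 39.3 CPM with siRNA 2 and 97.7, 109 and 118 CPM with control siRNA. Every depleted library lay under every control of its stage, and the first siRNA 1 myotube library stood highest among the depleted ones. The table's column for the third siRNA 2 myoblast library names SETD3 where the label names SETD2, and the third myotube control's library name holds NT_2 where the other controls have NT_1. The 6 myotube markers summed to 20010 to 23460 CPM in control myotubes and 166.5 to 202.1 CPM in control myoblasts. The 4 myoblast markers (Myod1, Myf5, Des and Cdh15) did not follow the stage names. They summed to 3853 to 4191 CPM in control myotubes and 1144 to 1333 CPM in control myoblasts. Endothelial and macrophage lists of 3 markers each summed to under 2 CPM in every library, and 3 of 4 neuron markers stayed under 0.1 CPM. Of 6 fibroblast markers, 1 stayed under 0.1 CPM in myotube groups and 2 in myoblast groups, and the sum was 367.3 to 582.3 CPM in control myotubes and 65.43 to 96.94 CPM in control myoblasts.

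The kinesin transcript pool of the myotubes was made mostly of transport kinesins, while in myoblasts mitotic kinesins made more than any other class. The pool was summed over the members found by the symbol rule, with Kif1bp left out. Cenpe, a kinetochore kinesin of another symbol, is not in it. Transport kinesins gave 85.25% ± 0.281 of the summed kinesin TPM in siRNA 1 myotubes, 84.64% ± 0.371 in siRNA 2 myotubes and 81.35% ± 0.562 in control myotubes (SD, n = 3 each). In myoblasts their share was 37.06% ± 0.298 with siRNA 1, 35.57% ± 0.45 with siRNA 2 and 36.65% ± 0.272 with control siRNA. Mitotic kinesins gave 7.576% ± 0.174 in siRNA 1 myotubes, 8.051% ± 0.498 in siRNA 2 myotubes and 11.02% ± 0.568 in control myotubes. The depleted and control myotubes did not overlap in this share, the highest depleted library being at 8.495% and the lowest control at 10.64%. In myoblasts the mitotic share was 54.49% ± 0.339 with siRNA 1, 56.25% ± 0.319 with siRNA 2 and 54.33% ± 0.359 with control siRNA. There the siRNA 2 libraries lay above the controls and the siRNA 1 libraries overlapped them. Ciliary kinesins held 2.566% ± 0.154 in control myotubes and 1.451% ± 0.0587 in control myoblasts.

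**Figure D1:**
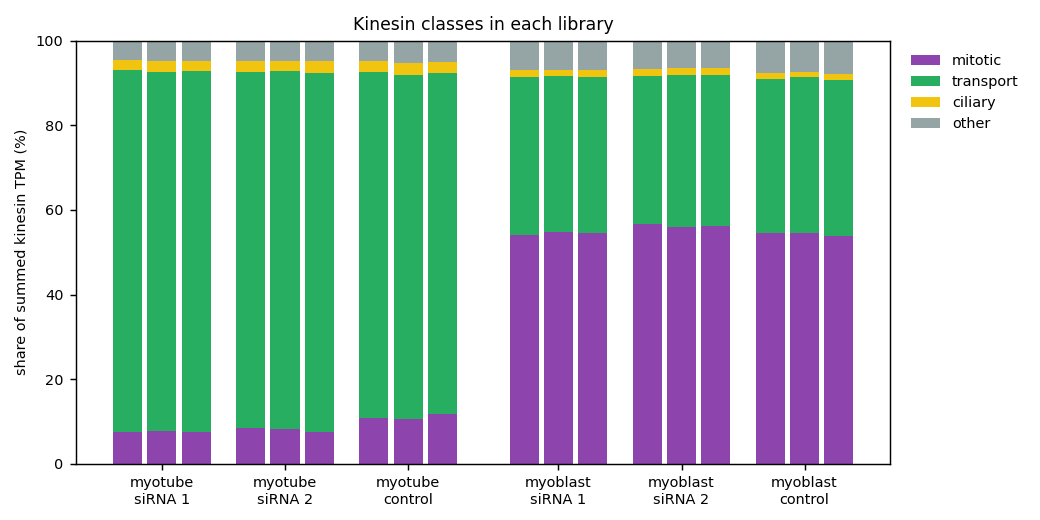
Each bar is 1 library and splits the summed TPM of its kinesins, without Kif1bp, into classes, in percent, with the 9 myotube libraries left of the 9 myoblast libraries. Mitotic kinesins (purple) take 7.422% to 11.67% of the bars in myotubes and 53.92% to 56.61% in myoblasts.

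Within control myotubes the most abundant member per length was Kif5b, the heavy chain of conventional kinesin, at 329.7 ± 15.1 TPM. Kif1c, a vesicle motor, followed with 154 ± 2.29 TPM, and Kif1b, a motor for mitochondria and vesicles, with 122 ± 3.75 TPM. In control myoblasts Kif5b again came first, at 173 ± 4.17 TPM, before Kif20a, a motor of the late mitotic midzone, at 133 ± 2.22 TPM and Kif1c at 98.2 ± 1.15 TPM. These neighbours in the order were each separated by more than their SDs. By group means the first 3 places of both stages had the same order in depleted cells. In siRNA 2 myoblasts the third place was not separated, with Kif1c at 92.4 ± 2.93 TPM and Kif22 at 88.4 ± 5.07 TPM. At the other end, Kif2b and Kif12 had 0 counts in all 18 libraries, and Kif28 had 0 counts in all 9 myoblast libraries. The filter on low counts kept 39 members in the myotube fit, 36 in the myoblast fit and 40 in the fit of all libraries. Kif17, Kif19a, Kif26a and Kif28 passed it only where myotubes were included, and Kif6 only where myoblasts were, so that a stage difference in those 5 was bound up with their passing.

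Every measured mitotic kinesin was lower in control myotubes than in control myoblasts, and most transport kinesins were higher. That contrast is called differentiation below. It cannot be told apart from library name prefix or deposited table. Myotube libraries are all C13 or D1 and lie in 1 table, and myoblast libraries are all C14 or D2 in another. Control myotubes against control myoblasts gave 37 called members of 40 tested, 21 higher and 16 lower, where 77.5% of all 16930 genes tested were called, 39.4% higher and 38.1% lower. All 12 mitotic members tested fell, with log2 fold changes of -3.01 to -2.27 and a median of -2.61, against 0.0038 over all genes. Of 15 transport members 12 rose and Kif1a fell, with a median of 0.66. Neither count moved under any alternative tried, DESeq2, limma on TPM and each library left out among them. Fewer dividing cells and less RNA per cell cannot be told apart in bulk RNA. The proliferation markers Mki67, Top2a and Ccnb1 summed to 282.6 to 302.7 CPM in control myotubes and 1883 to 1900 CPM in control myoblasts, and all 3 fell.

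Among the spindle motors, Kif11, the tetrameric kinesin that pushes spindle poles apart, had 26.5, 27.1 and 28.9 CPM in control myotubes, against 169.6, 167 and 165 CPM in control myoblasts. It was 6.07-fold lower in myotubes (log2 fold change -2.602, SE 0.050, adjusted p = 6.56e-20). Kif18b, which shortens astral microtubules, had 10.3, 11.2 and 11.6 CPM in control myotubes, against 89.3, 89.8 and 87.1 CPM in control myoblasts, the steepest fall of the class (log2 fold change -3.01, SE 0.058, adjusted p = 6.56e-20). No myotube library came near a myoblast library for either gene. Of the midzone motors, Kif20a had 37.8, 41.5 and 39.6 CPM in control myotubes, against 242, 249 and 249.7 CPM in control myoblasts (log2 fold change -2.64, SE 0.050, adjusted p = 5.54e-20). Kif23, the motor of the centralspindlin complex, had 19.96, 19.9 and 20.4 CPM in control myotubes, against 122, 125 and 123 CPM in control myoblasts (log2 fold change -2.62, SE 0.037, adjusted p = 2.45e-21). Kif20b, which also acts in cytokinesis, had 15.04, 16.9 and 15.95 CPM in control myotubes, against 88.8, 97.4 and 92.3 CPM in control myoblasts (log2 fold change -2.53, SE 0.046, adjusted p = 2.84e-20). For all 3 every myotube library lay far under every myoblast library. Kif14, a cytokinesis motor that binds citron kinase, had 10.5, 10.7 and 10.6 CPM in control myotubes, against 66.8, 67.6 and 71.7 CPM in control myoblasts (log2 fold change -2.698, SE 0.045, adjusted p = 9.86e-21). Kif22, a chromokinesin that binds chromosome arms, had 12.5, 12.4 and 13.1 CPM in control myotubes, against 86.8, 79.5 and 79.9 CPM in control myoblasts (log2 fold change -2.69, SE 0.053, adjusted p = 8.49e-20). These were the next steepest falls, in the order given. Kif4, a chromokinesin that also sets the length of the midzone, had 15.5, 15.8 and 16.3 CPM in control myotubes, against 75.7, 77.9 and 76.8 CPM in control myoblasts and fell 4.84-fold (log2 fold change -2.27, SE 0.042, adjusted p = 3.63e-20). Kifc1, a minus-end motor that focuses spindle poles, had 9.99, 10.8 and 11.7 CPM in control myotubes, against 59.3, 61.2 and 60.9 CPM in control myoblasts. Reads of Kifc1 can be split with its near-identical copy Kifc5b, which had 6.22, 6.49 and 7.403 CPM in control myotubes, against 36.4, 35.6 and 32.8 CPM in control myoblasts. Both genes were lower in every myotube library, and the value of either alone is uncertain.

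Of the transport class, Kif5b had 759, 802 and 727 CPM in control myotubes, against 401, 412 and 417 CPM in control myoblasts, a 1.86-fold rise (log2 fold change 0.90, SE 0.046, adjusted p = 4.33e-13). Kif1b had 511, 511 and 479 CPM in control myotubes, against 191, 190.3 and 189.6 CPM in control myoblasts and rose 2.63-fold (log2 fold change 1.395, SE 0.043, adjusted p = 1.02e-16). These were large changes in genes already abundant in myoblasts. Kif1c had 407, 407 and 410.4 CPM in control myotubes, against 254, 263 and 259.9 CPM in control myoblasts (log2 fold change 0.66, SE 0.033, adjusted p = 2.52e-13). Kif13a, which moves recycling endosomes, had 99.8, 97.6 and 94.5 CPM in control myotubes, against 61.7, 61.6 and 60.8 CPM in control myoblasts (log2 fold change 0.66, SE 0.039, adjusted p = 2.74e-12). Kif3b, a subunit of heterotrimeric kinesin-2, had 65.6, 67.4 and 64.7 CPM in control myotubes, against 46.3, 48.5 and 45.4 CPM in control myoblasts (log2 fold change 0.50, SE 0.036, adjusted p = 1.25e-10). In all 3 the myotube libraries lay above the myoblast libraries. Kif3c, an alternative kinesin-2 subunit, had 66.7, 72.7 and 66.9 CPM in control myotubes, against 58.4, 59.1 and 56.8 CPM in control myoblasts, a smaller rise (log2 fold change 0.24, SE 0.038, adjusted p = 7.4e-06). Kifc3, a minus-end motor of the cell cortex and Golgi, had 71.96, 74.5 and 71.5 CPM in control myotubes, against 19.4, 18.5 and 21.1 CPM in control myoblasts and rose 3.700-fold (log2 fold change 1.89, SE 0.057, adjusted p = 6.95e-17). Kif1a, the axonal motor for synaptic vesicle precursors, went the other way, with 6.08, 8.14 and 6.76 CPM in control myotubes, against 10.96, 14.2 and 15.3 CPM in control myoblasts (log2 fold change -0.93, SE 0.21, adjusted p = 0.000817). Kif5a and Kif5c, the conventional kinesins known from neurons, did not pass the test, with adjusted p = 0.172 and 0.178.

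In the ciliary and other classes members moved in both directions between stages. Kif26a, whose protein lacks motor ATPase activity, had 248 counts over the 3 control myotube libraries and 0 over the 3 control myoblast libraries, which makes it at least 84.1-fold higher when the 0 is set to 3 counts over the group. Kif28 had 55 counts in control myotubes and 0 in control myoblasts, at least 18.7-fold higher. Kif26b, the relative of Kif26a, had 25.1, 21.96 and 25.2 CPM in control myotubes, against 6.45, 5.19 and 6.34 CPM in control myoblasts (log2 fold change 2.002, SE 0.13, adjusted p = 2.23e-10). Low values are shared by these genes, none of which passed 32 CPM in any library. Kif19a, which in mice shortens the microtubules of motile cilia, had 3.84, 4.46 and 4.24 CPM in control myotubes, against 0.0663, 0.128 and 0.106 CPM in control myoblasts (log2 fold change 5.37, SE 0.23, adjusted p = 1.81e-14). Kif9, a motor of motile cilia, also rose (log2 fold change 2.23, SE 0.20, adjusted p = 2.6e-09). Kif2a, a microtubule depolymerase, fell to 53.98, 59.02 and 51.96 CPM in control myotubes, against 111, 109.9 and 115 CPM in control myoblasts (log2 fold change -1.02, SE 0.041, adjusted p = 7.4e-15). Kif21a, which restrains microtubule plus ends, had 22.96, 24.6 and 23.1 CPM in control myotubes, against 48.97, 57.3 and 60.02 CPM in control myoblasts and fell too (log2 fold change -1.23, SE 0.065, adjusted p = 5.41e-13). Kif24, a centriolar kinesin, was called higher (0.24), but without the second myotube control its adjusted p was 0.112.

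**Figure D2:**
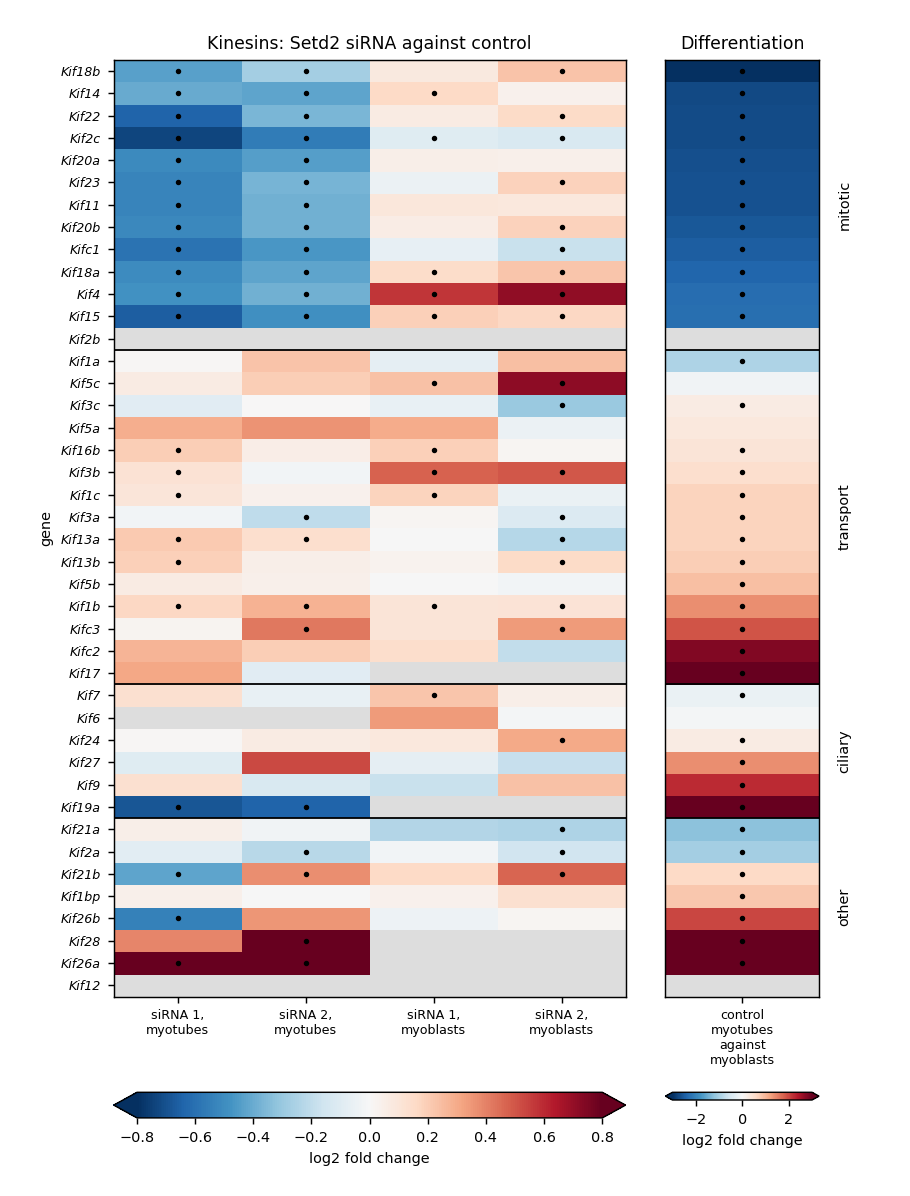
Rows are the 42 members by class and columns the comparisons. Colour gives the log2 fold change from edgeR (blue lower, red higher) on a wider range in the panel of the stages, a dot marks an adjusted p under 0.05 and grey a member not tested. All 12 tested mitotic kinesins are lower with each siRNA in myotubes and on differentiation, while in myoblasts the largest called rises are those of Kif4 and Kif3b with siRNA 1 and of Kif4, Kif5c and Kif3b with siRNA 2.

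Genes that work with these motors were taken from 3 lists, whose counts stand beside 39.4% of all genes called higher and 38.1% called lower. All 13 mitotic partners fell on differentiation, with a median of -2.60. Aurka, the spindle kinase, fell the most (log2 fold change -3.203, SE 0.057, adjusted p = 2.56e-20), and Plk1, the polo kinase, fell as well (log2 fold change -2.898, SE 0.050, adjusted p = 1.75e-20). Of 16 cargo partners tested 14 rose and 1 fell. Klc4 and Klc1, light chains of conventional kinesin, rose the most (log2 fold changes of 1.51 and 1.23, adjusted p = 1.75e-14 and 4.92e-16), and Map7d3, a microtubule protein that recruits kinesin-1, fell (-1.07, adjusted p = 0.00389). Of 19 genes of dynein, the opposing minus-end motor, and its partners, 10 rose and 3 fell, a share of calls under the 77.5% of all genes. Bicd2, a dynein cargo adaptor, rose to 615, 653 and 613 CPM in control myotubes, against 175, 177 and 174 CPM in control myoblasts (log2 fold change 1.84, SE 0.040, adjusted p = 3.53e-19), and Dync1i1, an intermediate chain, rose as well (1.49, adjusted p = 7.71e-07). Nde1, a dynein regulator of dividing cells, fell (log2 fold change -1.098, SE 0.032, adjusted p = 4.64e-17), as did Dynll1 (-0.20).

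Since the mitotic members moved together, promoter windows from 250 bases before to 50 after the annotated start were searched on both strands for the CHR word TTTGAA, its variant TTCGAA and the word CCAAT, and motifs were allowed to overlap. The CHR is known in human cells as a binding element of the MuvB complexes that time G2 and M phase genes, and CCAAT is the word bound by NF-Y. RefSeq windows of GRCm38.p6 were found for 33 of the 42 members, in 37 windows. TTTGAA lay in 10 of 12 mitotic windows (83.3%), in 1 of 12 transport windows (8.33%, Kif1a) and in 17.9% of all 32851 windows of that length. Within 25 bases of the start it lay in 8 mitotic windows (66.7%), 0 transport windows and 2.7% of all windows. The 12 transport windows belong to 10 genes, and Kif1b has a pair of overlapping windows from neighbouring starts. The mitotic windows without it were those of Kif2b and Kif18a. CCAAT lay in 66.7% of mitotic, 33.3% of transport and 37.4% of all windows, and TTCGAA in 0 mitotic and 0 transport windows, against 1.56% of all. A match is a description of letters in a window and not a binding site. Kif18a fell on differentiation without a match (log2 fold change -2.37), and Kif1a, a transport member with a match, fell as well. Of the remaining classes, Kif26b had TTTGAA within 25 bases of the start and Kif27 had it further away. Both were called higher on differentiation. The following 150 bases, 100 before to 50 after the start, show 4 mitotic promoters with the word near the start and 2 transport promoters without it. Each reads 5′ to 3′ along the gene's strand, and capitals mark TTTGAA or CCAAT, or TTCAAA and ATTGG where they lie on the other strand.
Kif11 (chr19:37376282-37376431, plus strand): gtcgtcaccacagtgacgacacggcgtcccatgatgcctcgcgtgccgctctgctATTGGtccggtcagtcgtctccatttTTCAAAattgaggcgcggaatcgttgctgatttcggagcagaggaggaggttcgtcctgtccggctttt
Kif4 (chrX:100625965-100626114, plus strand): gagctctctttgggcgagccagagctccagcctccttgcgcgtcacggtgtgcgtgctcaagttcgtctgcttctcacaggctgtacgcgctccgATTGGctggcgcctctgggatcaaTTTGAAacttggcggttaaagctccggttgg
Kif18b (chr11:102925075-102925224, minus strand): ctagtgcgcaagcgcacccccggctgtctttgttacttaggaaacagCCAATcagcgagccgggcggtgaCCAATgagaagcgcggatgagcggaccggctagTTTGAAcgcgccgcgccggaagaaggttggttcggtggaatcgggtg
Kifc1 (chr17:33890584-33890733, minus strand): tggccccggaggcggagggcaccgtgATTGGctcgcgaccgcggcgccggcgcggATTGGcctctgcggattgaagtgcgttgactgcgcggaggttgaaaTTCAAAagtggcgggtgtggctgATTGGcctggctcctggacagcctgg
Kif1b (chr4:149307649-149307798, minus strand): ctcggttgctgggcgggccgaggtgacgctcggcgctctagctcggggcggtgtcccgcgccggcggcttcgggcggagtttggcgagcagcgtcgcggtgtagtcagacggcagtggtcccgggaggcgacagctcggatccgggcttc
Kif3b (chr2:153291316-153291465, plus strand): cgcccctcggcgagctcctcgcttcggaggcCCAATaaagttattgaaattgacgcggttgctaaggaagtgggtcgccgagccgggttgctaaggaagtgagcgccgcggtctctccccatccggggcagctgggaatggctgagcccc

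**Figure D3:**
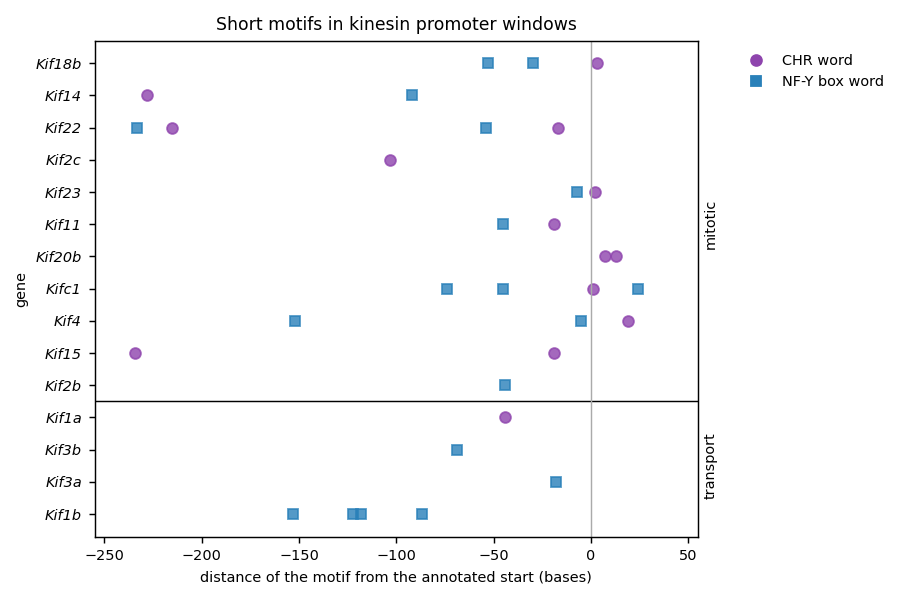
Each point is 1 motif found in the promoter window of a mitotic or transport kinesin, by its distance in bases from the annotated start, with CHR words as circles and the NF-Y box word as squares; members with a window but no match are not drawn. Circles of 8 mitotic genes lie within 25 bases of the start, and those of transport genes within that distance number 0.

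Transcript usage was tested in the same way for members with at least 2 transcripts kept. Between control myotubes and control myoblasts 5 of 25 members were called with edgeR's Simes test, where 15.5% of all genes were called, so the share is near that of all genes. With 1 library left out the count was 4 to 6. Shares below are of a gene's TPM and depend on how the authors' quantifier divided reads among overlapping transcripts. Kif1b-202, which encodes 1770 residues, was listed at or near 0 in each myotube library and had 4.97, 4.76 and 3.89% in control myoblasts (gene adjusted p = 3.68e-15). Its main products kept their places: Kif1b-201, of 1150 residues, held 56.2, 57.4 and 56.3% in control myotubes and 53.3, 55.5 and 55.8% in control myoblasts, and Kif1b-203, of 1816 residues, held 36.1, 34.8 and 36.1% in control myotubes and 29.9, 26.5 and 30.7% in control myoblasts. The first has the length known for the mitochondrial form. The second and Kif1b-202 are both longer, as the vesicle form is known to be. Kif3a-202, which encodes 725 residues where Kif3a-201 encodes 698, had 9.72, 6.22 and 9.17% in control myotubes and 0, 0.386 and 0.365% in control myoblasts (gene adjusted p = 2.52e-06). Kif2a-206, of 743 residues, had 14.2, 16.8 and 13.03% in control myotubes and 6.36, 7.56 and 5.22% in control myoblasts (gene adjusted p = 0.00667). Neither gene's groups overlapped. Kif21b-204, annotated as a target of nonsense-mediated decay, had 8.98, 15.99 and 19.9% in control myotubes and was listed at 0 in control myoblasts (gene adjusted p = 2.17e-05). Kif1c was called through a minor transcript, Kif1c-203 (transcript log2 difference 1.79, adjusted p = 0.00264). With either siRNA 0 members were called by edgeR's Simes test, of 24 tested in myotubes and 21 in myoblasts, where 1.29% and 1.58% of all genes were called in myotubes with siRNA 1 and siRNA 2 and 1.14% and 1.46% in myoblasts. At an unadjusted p under 0.05 there were 2 and 0 members in myotubes and 2 and 2 in myoblasts.

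**Figure D4:**
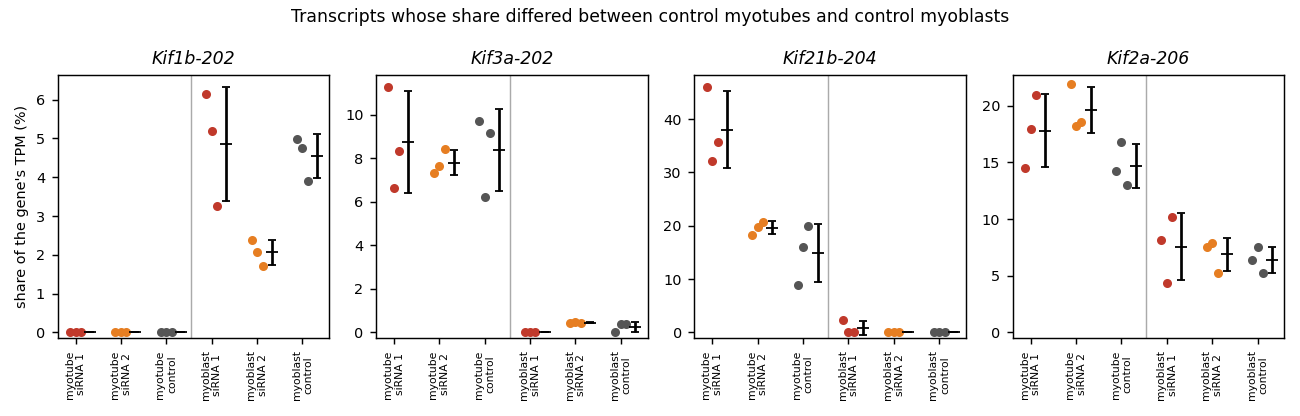
Share of each gene's TPM held by 4 transcripts, in percent, with a point per library and the mean and SD of 3 libraries beside it, myotube groups left of the grey line and myoblast groups right of it. Kif1b-202 is at or near 0 in myotubes, and Kif3a-202 is above 6% in each myotube library and under 1% in each myoblast library.

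In myotubes, depletion of Setd2 lowered the mitotic kinesins further, below their level in control myotubes. With siRNA 1, 22 of 39 members were called, 7 higher and 15 lower, where 20.5% of all 16097 genes were called, 11.0% higher and 9.57% lower. With siRNA 2, 21 of 39 were called, 6 higher and 15 lower, where 32.2% of all genes were called, 15.8% higher and 16.4% lower. On log2(TPM + 1) with limma, siRNA 1 gave 0 higher and 15 lower, and siRNA 2 gave 4 higher and 15 lower. On that scale the calls over all genes tipped downward too, with 30.6% of them higher with siRNA 1 and 25.2% with siRNA 2, against 53.4% and 49.1% in edgeR. All 12 tested mitotic members fell with each siRNA, with medians of -0.52 with siRNA 1 and -0.40 with siRNA 2, against -0.00086 and -0.011 over all genes. The comparisons share their controls. Genes called lower with both siRNAs made up 6.27% of all genes, and of the kinesins they were these 12 and Kif19a. Within each library name prefix the mitotic median kept its sign, at -0.59 in C13 and -0.53 in D1 with siRNA 1, and at -0.38 in C13 and -0.41 in D1 with siRNA 2. For each siRNA, prefix ratios in myotubes set 1 depleted library against 2 controls in C13. In D1 they set 2 depleted libraries against 1 control. The proliferation markers moved in the same direction and all 3 fell, with sums of 189.7 to 203.4 CPM in siRNA 1 myotubes, 202.1 to 216.4 CPM in siRNA 2 myotubes and 282.6 to 302.7 CPM in control myotubes. The 6 myotube markers summed to 22750 to 27980 CPM in siRNA 1 myotubes, 24070 to 26100 CPM in siRNA 2 myotubes and 20010 to 23460 CPM in control myotubes. The part of either list in the result was not tested. Without the siRNA 1 library that kept the most Setd2, all 12 mitotic members were still called.

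Kif2c, the centromere depolymerase MCAK, fell most with siRNA 1, with 8.52, 9.47 and 8.55 CPM in siRNA 1 myotubes, 10.5, 10.1 and 9.46 CPM in siRNA 2 myotubes and 14.2, 14.9 and 15.2 CPM in control myotubes. It was 1.66-fold lower with siRNA 1 (log2 fold change -0.73, SE 0.065, adjusted p = 3.08e-05) and 1.48-fold lower with siRNA 2 (log2 fold change -0.56, SE 0.065, adjusted p = 5.5e-05). Depleted and control libraries did not overlap. Kif15, a spindle motor that backs up Kif11, had 7.26, 7.53 and 6.74 CPM in siRNA 1 myotubes, 8.57, 8.44 and 7.27 CPM in siRNA 2 myotubes and 11.2, 10.3 and 12.7 CPM in control myotubes. Its log2 fold changes were -0.66 and -0.49 with siRNA 1 and siRNA 2 (SE 0.093 and 0.092, adjusted p = 0.00052 and 0.00162). Kif11 showed the class's typical change, with 18.3, 20.7 and 18.2 CPM in siRNA 1 myotubes, 21.2, 22.00 and 20.1 CPM in siRNA 2 myotubes and 26.5, 27.1 and 28.9 CPM in control myotubes (log2 fold changes of -0.53 and -0.38, adjusted p = 0.000124 and 0.00039). In Kif15 and Kif11 alike all 6 depleted libraries lay under the 3 controls. For the midzone, Kif20a had 26.5, 29.1 and 27.7 CPM in siRNA 1 myotubes, 31.6, 29.3 and 26.9 CPM in siRNA 2 myotubes and 37.8, 41.5 and 39.6 CPM in control myotubes (log2 fold changes of -0.51 and -0.44). Kif23 had 14.04, 14.6 and 13.1 CPM in siRNA 1 myotubes, 15.6, 15.8 and 15.3 CPM in siRNA 2 myotubes and 19.96, 19.9 and 20.4 CPM in control myotubes (-0.53 and -0.37). Kif4 had 10.6, 11.8 and 11.6 CPM in siRNA 1 myotubes, 12.5, 12.5 and 11.6 CPM in siRNA 2 myotubes and 15.5, 15.8 and 16.3 CPM in control myotubes (-0.48 and -0.38). The 6 adjusted p of these 3 genes ran from 6.51e-05 to 0.000404, and no depleted library reached a control. Kif20b had 10.99, 11.5 and 10.96 CPM in siRNA 1 myotubes, 12.04, 12.3 and 12.4 CPM in siRNA 2 myotubes and 15.04, 16.9 and 15.95 CPM in control myotubes (-0.52 and -0.39, adjusted p = 0.000105 and 0.00028). The weakest change with siRNA 2 was that of Kif18b, with 7.34, 8.65 and 8.39 CPM in siRNA 1 myotubes, 9.45, 9.52 and 8.41 CPM in siRNA 2 myotubes and 10.3, 11.2 and 11.6 CPM in control myotubes (-0.44 and -0.27, adjusted p = 0.00235 and 0.0184). For siRNA 2 its call ended without the second control (adjusted p = 0.0556), without the third control (0.0751) and without the third siRNA 2 library (0.097). Kif14 had 7.53, 8.204 and 8.19 CPM in siRNA 1 myotubes, 7.79, 8.32 and 7.602 CPM in siRNA 2 myotubes and 10.5, 10.7 and 10.6 CPM in control myotubes, the smallest change of the class with siRNA 1 (-0.40). Kif22 had 7.98, 8.35 and 8.04 CPM in siRNA 1 myotubes, 10.2, 10.2 and 9.07 CPM in siRNA 2 myotubes and 12.5, 12.4 and 13.1 CPM in control myotubes (-0.64 with siRNA 1). Both genes fell with each siRNA.

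The mitotic partners fell as well. Of all genes 20.5% were called with siRNA 1, 11.0% higher and 9.57% lower. With siRNA 2 32.2% were called, 15.8% higher and 16.4% lower. The following counts stand against these shares. All 13 mitotic partners were called lower with each siRNA, with medians of -0.49 with siRNA 1 and -0.41 with siRNA 2. Hmmr, a spindle microtubule protein, fell most with siRNA 1 (log2 fold change -0.62, SE 0.056, adjusted p = 3.26e-05), and Aurka with siRNA 2 (log2 fold change -0.55, SE 0.075, adjusted p = 0.000185) and next with siRNA 1 (-0.55). Ndc80, the outer kinetochore protein, was next with siRNA 2 (-0.47). Cargo partners had 4 higher and 0 lower of 16 with siRNA 1, and 6 higher and 2 lower with siRNA 2. With siRNA 1 the share called in either direction is near that of all genes, but by direction it is not. Map7d1, which recruits kinesin-1 to microtubules, rose with siRNA 1 (log2 fold change 0.27, SE 0.034, adjusted p = 0.000246). Mapk8ip1, a kinesin-1 scaffold, rose with siRNA 1 (0.27, adjusted p = 0.00165) and with siRNA 2 (0.28, adjusted p = 0.000639), and Plekhm2, which links lysosomes to kinesin-1, rose with siRNA 2 (0.17). Kifap3, the non-motor subunit of kinesin-2, fell with siRNA 2, to 125, 123 and 119.7 CPM in siRNA 2 myotubes, against 159.6, 169 and 157 CPM in control myotubes (log2 fold change -0.40, SE 0.043, adjusted p = 3.23e-05), and Trak1, the mitochondrial adaptor, fell too (-0.17). The dynein and dynactin genes called in either direction came to a share under that of all genes with each siRNA, a difference that was not tested. Of 19 dynein and dynactin genes, 2 rose and 1 fell with siRNA 1, namely Dctn2 (0.16), Dctn3 (0.13) and Nde1 (-0.11). With siRNA 2, 0 rose and 3 fell, the furthest being Dync1i1 (-0.24) and Nde1 (-0.14).

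**Figure D5:**
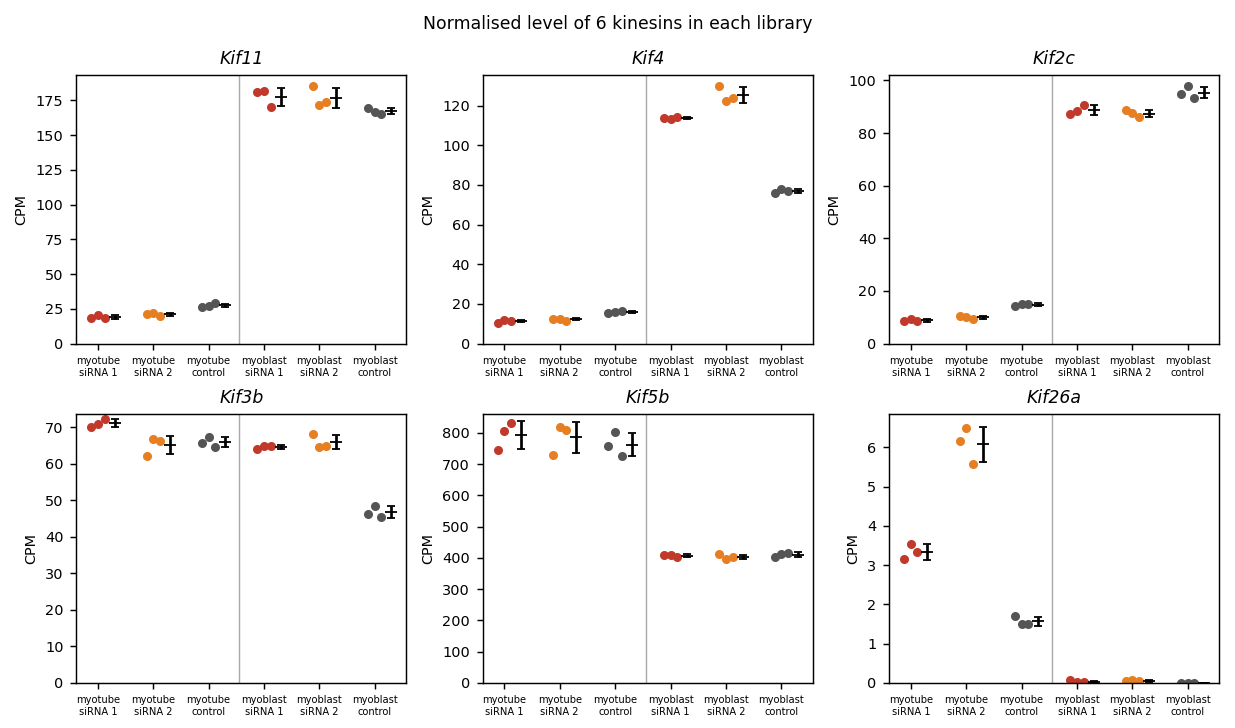
CPM of 6 kinesins, a point per library with the mean and SD of 3 libraries beside it, myotube groups left of the grey line. Kif11, Kif4 and Kif2c are lower in depleted than control myotubes, Kif4 and Kif3b are higher in depleted than control myoblasts, Kif5b differs by stage, and Kif26a is highest in siRNA 2 myotubes.

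Most transport kinesins did not pass the test in depleted myotubes, and those that did were mostly higher. With siRNA 1, 6 of 15 rose and 0 fell, with a median of 0.11, and on TPM with limma 0 were called. That count was 2 without any 1 of the 3 controls, and 2 without the second or the third siRNA 1 library. With siRNA 2, 3 rose and Kif3a fell, with a median of 0.052. Of all genes 15.8% were called higher and 16.4% lower, so that only the share of rises is near that of all genes. Genes called higher with both siRNAs made up 7.14% of all genes, and of the kinesins they were Kif1b, Kif13a and Kif26a. Kif1b had 547, 555 and 572 CPM in siRNA 1 myotubes, 655, 577 and 591 CPM in siRNA 2 myotubes and 511, 511 and 479 CPM in control myotubes. Its log2 fold changes were 0.16 (SE 0.051, adjusted p = 0.0386) with siRNA 1 and 0.28 (SE 0.051, adjusted p = 0.00123) with siRNA 2. The siRNA 1 call ended without any 1 of the controls and without the second or the third siRNA 1 library, at adjusted p = 0.0612 to 0.144. Kif13a had 114, 111 and 111 CPM in siRNA 1 myotubes, 114, 103 and 103 CPM in siRNA 2 myotubes and 99.8, 97.6 and 94.5 CPM in control myotubes (log2 fold changes of 0.21 and 0.13, adjusted p = 0.00655 and 0.0413). Its siRNA 2 call ended without the second control (adjusted p = 0.101), the third control (0.131) or the first siRNA 2 library (0.126). Kif16b, an early endosome motor, had 41.04, 43.5 and 44.9 CPM in siRNA 1 myotubes, 43.3, 36.9 and 37.4 CPM in siRNA 2 myotubes and 39.4, 37.5 and 36.5 CPM in control myotubes and rose with siRNA 1 (log2 fold change 0.20, SE 0.062, adjusted p = 0.0438), a call lost without any 1 control or the second or the third siRNA 1 library (adjusted p = 0.0526 to 0.146). Kifc3 had 76.1, 72.3 and 72.3 CPM in siRNA 1 myotubes, 104, 95.6 and 92.2 CPM in siRNA 2 myotubes and 71.96, 74.5 and 71.5 CPM in control myotubes and rose with siRNA 2 (log2 fold change 0.42, SE 0.048, adjusted p = 5.05e-05), while with siRNA 1 it did not pass (adjusted p = 0.793). The siRNA 2 libraries of Kifc3 lay above all others, and the difference of siRNA 2 from siRNA 1, a comparison in which 17.1% of all genes were called, 7.76% higher and 9.36% lower, passed too (0.40, adjusted p = 0.000193). Kif1c had 429, 442 and 436 CPM in siRNA 1 myotubes, 421, 424 and 410.0 CPM in siRNA 2 myotubes and 407, 407 and 410.4 CPM in control myotubes and was called with siRNA 1 (log2 fold change 0.099, SE 0.032, adjusted p = 0.0482), which ended without any 1 control or the second or the third siRNA 1 library (adjusted p = 0.0851 to 0.139). Kif5b, the most abundant member, did not pass, with 746, 806 and 833 CPM in siRNA 1 myotubes, 730.2, 821 and 808 CPM in siRNA 2 myotubes and 759, 802 and 727 CPM in control myotubes (adjusted p = 0.439 and 0.582). Kif3b had 70.1, 70.9 and 72.3 CPM in siRNA 1 myotubes, 62.2, 66.8 and 66.1 CPM in siRNA 2 myotubes and 65.6, 67.4 and 64.7 CPM in control myotubes. Kif3c had 62.6, 65.7 and 65.2 CPM in siRNA 1 myotubes, 67.99, 70.01 and 69.2 CPM in siRNA 2 myotubes and 66.7, 72.7 and 66.9 CPM in control myotubes. Kif3b was called with siRNA 1 (0.11, adjusted p = 0.0337), lost without any 1 control or the second or the third siRNA 1 library (adjusted p = 0.0582 to 0.132), and Kif3c with neither.

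The largest rise of any member in depleted myotubes was that of Kif26a, with 3.14, 3.53 and 3.33 CPM in siRNA 1 myotubes, 6.15, 6.48 and 5.58 CPM in siRNA 2 myotubes and 1.700, 1.496 and 1.496 CPM in control myotubes. It was 2.15-fold higher with siRNA 1 (log2 fold change 1.101, SE 0.11, adjusted p = 7.06e-05) and 3.89-fold higher with siRNA 2 (log2 fold change 1.96, SE 0.11, adjusted p = 3.41e-07). The 3 groups did not overlap in CPM, and siRNA 2 exceeded siRNA 1 (0.86, adjusted p = 0.000159). Within prefixes the rises were 0.98 in C13 and 1.2 in D1 with siRNA 1, and 1.95 in C13 and 2.01 in D1 with siRNA 2. On TPM with limma the siRNA 1 rise was not called (0.37, adjusted p = 0.0763), and in TPM these groups overlapped, the first siRNA 1 library having 0.841 TPM, against 0.854 TPM in the first control. Kif28 had 0.214, 0.5102 and 0.621 CPM in siRNA 1 myotubes, 0.819, 0.636 and 0.9898 CPM in siRNA 2 myotubes and 0.233, 0.305 and 0.486 CPM in control myotubes and rose with siRNA 2 (log2 fold change 1.24, SE 0.36, adjusted p = 0.0206), a call on few reads that ended without the first control (adjusted p = 0.0752), the second control (0.0782) or the third siRNA 2 library (0.0757). Kif19a fell with each siRNA, with 2.66, 2.53 and 2.61 CPM in siRNA 1 myotubes, 2.31, 2.91 and 2.81 CPM in siRNA 2 myotubes and 3.84, 4.46 and 4.24 CPM in control myotubes. Its log2 fold changes were -0.68 and -0.64 (SE 0.11 and 0.11, adjusted p = 0.00141 and 0.00103). All depleted libraries of Kif19a lay under the controls. Kif21b, which restrains plus ends like Kif21a, moved in opposite directions, with 9.98, 12.5 and 11.8 CPM in siRNA 1 myotubes, 16.8, 20.5 and 22.4 CPM in siRNA 2 myotubes and 14.5, 16.6 and 14.9 CPM in control myotubes. It fell with siRNA 1 (-0.42, adjusted p = 0.0191) and rose with siRNA 2 (0.37, adjusted p = 0.0186), and siRNA 2 against siRNA 1 differed by 0.80 (adjusted p = 0.000643). The siRNA 1 call ended without the second or the third control or the first or the third siRNA 1 library (adjusted p = 0.0511 to 0.0761), and the siRNA 2 call without the first or the third control or the second or the third siRNA 2 library (0.0596 to 0.0704). Kif26b had 20.8, 13.8 and 14.8 CPM in siRNA 1 myotubes, 31.3, 29.96 and 30.8 CPM in siRNA 2 myotubes and 25.1, 21.96 and 25.2 CPM in control myotubes, with log2 fold changes of -0.54 (adjusted p = 0.0388) and 0.35 (adjusted p = 0.105) and a difference of siRNA 2 from siRNA 1 of 0.89 (adjusted p = 0.00538). Its siRNA 1 call was lost without any 1 control or the second or the third siRNA 1 library (adjusted p = 0.055 to 0.124), and within prefixes the change was -0.27 in C13 and -0.62 in D1. Kif9, which ends 7417 bases from the start of Setd2 on chromosome 9, was not called with either siRNA in either stage.

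In myoblasts the mitotic kinesins did not fall as a class, and Kif4 rose. With siRNA 1, 11 of 36 members were called, 10 higher and 1 lower, where 20.0% of all 15586 genes were called, 11.6% higher and 8.44% lower. With siRNA 2, 21 were called, 14 higher and 7 lower, where 33.5% of all genes were called, 17.1% higher and 16.5% lower. On TPM with limma the split was 2 higher and 3 lower with siRNA 1, and 8 higher and 7 lower with siRNA 2. Over all genes the share of calls that were higher was 27.7% with siRNA 1 and 36.9% with siRNA 2 on that scale, against 57.9% and 50.9% in edgeR. The siRNA 1 count was 6 without the first or second siRNA 1 library or the second control, 7 without the third control, and 9 without the siRNA 2 library whose column names SETD3. Without that library the siRNA 2 count was 18. Of 12 mitotic members 4 rose and 1 fell with siRNA 1, with a median of 0.072, and 7 rose and 2 fell with siRNA 2, with a median of 0.16, against 0.0055 and 0.0002 over all genes. Genes called with both siRNAs in myoblasts made up 7.69% of all genes higher and 4.25% lower, and of the kinesins Kif15, Kif18a, Kif4, Kif1b, Kif3b and Kif5c were higher and Kif2c lower. The siRNA 1 count of 5 mitotic members was 2 without the first or second siRNA 1 library or the second control and 3 without the first or the third control. Ribosomal RNA-like sequence took 3.556% to 3.9% of the counts in siRNA 1 myoblasts, 1.453% to 4.087% in siRNA 2 myoblasts and 1.195% to 1.359% in control myoblasts, and its part in these counts was not tested. Fibroblast markers summed to 99.91 to 128.4 CPM in siRNA 1 myoblasts, 143.4 to 204 CPM in siRNA 2 myoblasts and 65.43 to 96.94 CPM in control myoblasts, which was not tested either. Myotube markers summed to 195.8 to 263.4 CPM in siRNA 1 myoblasts, 342.6 to 424.1 CPM in siRNA 2 myoblasts and 166.5 to 202.1 CPM in control myoblasts. Myoblast markers summed to 1501 to 1573 CPM, 1635 to 1745 CPM and 1144 to 1333 CPM in the same order of groups. Proliferation markers gave sums of 1855 to 1933 CPM with siRNA 1, 2018 to 2204 CPM with siRNA 2 and 1883 to 1900 CPM with control siRNA. Their members differed in direction, Top2a being called lower (-0.14) and Mki67 higher (0.15) with siRNA 1, and Mki67 alone called, higher (0.32), with siRNA 2.

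Kif4 had 114, 113 and 114 CPM in siRNA 1 myoblasts, 129.7, 122 and 124 CPM in siRNA 2 myoblasts and 75.7, 77.9 and 76.8 CPM in control myoblasts. It was 1.48-fold higher with siRNA 1 (log2 fold change 0.57, SE 0.030, adjusted p = 2.05e-07) and 1.64-fold higher with siRNA 2 (log2 fold change 0.71, SE 0.030, adjusted p = 1.28e-08). The 3 groups did not overlap, and the call held in every alternative tried. Within prefixes the rises were 0.58 in C14 and 0.56 in D2 with siRNA 1, and 0.78 in C14 and 0.67 in D2 with siRNA 2. Each prefix held 1 or 2 libraries of each myoblast group. Prc1, the midzone bundler that Kif4 works with, had 258, 259 and 257 CPM in siRNA 1 myoblasts, 244, 229 and 233 CPM in siRNA 2 myoblasts and 234, 239.8 and 234 CPM in control myoblasts, and was called higher with siRNA 1 (0.13, adjusted p = 0.00647) and not with siRNA 2. The other mitotic members moved by much less. Kif18a, which aligns chromosomes, had 29.5, 30.7 and 28.5 CPM in siRNA 1 myoblasts, 32.4, 29.8 and 30.9 CPM in siRNA 2 myoblasts and 26.95, 27.1 and 26.2 CPM in control myoblasts (log2 fold changes of 0.15 and 0.22, adjusted p = 0.039 and 0.00261). Its siRNA 1 call ended without any 1 control, without the first or second siRNA 1 library, and without the third siRNA 2 library, at adjusted p = 0.0575 to 0.159. Kif15 had 62.6, 65.1 and 59.2 CPM in siRNA 1 myoblasts, 66.3, 57.8 and 59.5 CPM in siRNA 2 myoblasts and 55.4, 55.5 and 53.4 CPM in control myoblasts (0.19 and 0.17, adjusted p = 0.0241 and 0.0293). Its calls ended without any 1 control, without the first or second siRNA 1 library (adjusted p = 0.0511 to 0.105), and for siRNA 2 without the first siRNA 2 library or any 1 control (0.0597 to 0.121). Kif2c, called lower with both siRNAs, had 87.2, 88.3 and 90.8 CPM in siRNA 1 myoblasts, 88.6, 87.5 and 85.99 CPM in siRNA 2 myoblasts and 94.9, 97.8 and 93.4 CPM in control myoblasts (-0.100 and -0.12, adjusted p = 0.0331 and 0.00704). For siRNA 1 that ended without the second control or the first or second siRNA 1 library (adjusted p = 0.101 to 0.135). Kifc1, whose reads can be split with Kifc5b, was called lower with siRNA 2 only (log2 fold change -0.18), in every alternative. It had 53.1, 56.5 and 50.6 CPM in siRNA 2 myoblasts and 59.3, 61.2 and 60.9 CPM in control myoblasts. Kif23 and Kif18b were called with siRNA 2 and not with siRNA 1. Kif23 had 118, 117 and 122 CPM in siRNA 1 myoblasts, 141, 137 and 141 CPM in siRNA 2 myoblasts and 122, 125 and 123 CPM in control myoblasts (log2 fold change 0.18, SE 0.028, adjusted p = 0.000262 with siRNA 2). Kif18b had 92.6, 89.7 and 98.3 CPM in siRNA 1 myoblasts, 107, 102 and 102 CPM in siRNA 2 myoblasts and 89.3, 89.8 and 87.1 CPM in control myoblasts (log2 fold change 0.23, SE 0.036, adjusted p = 0.000358). The siRNA 2 libraries lay above the others for both genes, and siRNA 2 against siRNA 1, where 26.3% of all genes were called, 12.1% higher and 14.3% lower, gave 0.23 for Kif23 (adjusted p = 7.55e-05) and 0.15 for Kif18b (adjusted p = 0.00877). The abundant Kif11 and Kif20a did not pass: Kif11 had 181, 181 and 170.0 CPM in siRNA 1 myoblasts, 185, 172 and 174 CPM in siRNA 2 myoblasts and 169.6, 167 and 165 CPM in control myoblasts (adjusted p = 0.114 and 0.101), and Kif20a had 252, 252 and 260.3 CPM in siRNA 1 myoblasts, 262, 245 and 252 CPM in siRNA 2 myoblasts and 242, 249 and 249.7 CPM in control myoblasts (0.294 and 0.331). Kif20b had 97.00, 98.9 and 92.9 CPM in siRNA 1 myoblasts, 107, 103 and 104 CPM in siRNA 2 myoblasts and 88.8, 97.4 and 92.3 CPM in control myoblasts, called with siRNA 2 (0.18, adjusted p = 0.00311). Kif14 had 75.6, 75.9 and 78.4 CPM in siRNA 1 myoblasts, 70.1, 68.7 and 72.03 CPM in siRNA 2 myoblasts and 66.8, 67.6 and 71.7 CPM in control myoblasts and was called higher with siRNA 1 (0.16, adjusted p = 0.00663). Kif22 had 88.2, 85.5 and 83.1 CPM in siRNA 1 myoblasts, 96.4, 88.5 and 88.3 CPM in siRNA 2 myoblasts and 86.8, 79.5 and 79.9 CPM in control myoblasts and was called higher with siRNA 2 (0.15, adjusted p = 0.0216). The Kif22 call ended without the first siRNA 2 library or the second or the third control (adjusted p = 0.0865 to 0.0985). On TPM with limma neither call stood, nor that of Kif20b (adjusted p = 0.288 for Kif14, 0.119 for Kif22 and 0.0542 for Kif20b). siRNA 2 against siRNA 1 gave -0.12 for Kif14 (adjusted p = 0.0199) and 0.089 for Kif22 (adjusted p = 0.183).

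Of the transport class, 5 of 14 rose and 0 fell with siRNA 1, where 11.6% of all genes were called higher and 8.44% lower. With siRNA 2, 5 rose and 3 fell, where 17.1% of all genes were called higher and 16.5% lower, so that the falls are near the share of all genes. The siRNA 1 count was 3 without the second siRNA 1 library or the third control, and 1 on TPM with limma. Kif3b had 64.03, 64.98 and 64.9 CPM in siRNA 1 myoblasts, 68.04, 64.6 and 64.9 CPM in siRNA 2 myoblasts and 46.3, 48.5 and 45.4 CPM in control myoblasts. It was 1.39-fold higher with siRNA 1 (log2 fold change 0.47, SE 0.035, adjusted p = 2.67e-06) and 1.41-fold higher with siRNA 2 (log2 fold change 0.50, SE 0.036, adjusted p = 5.9e-07), a call kept in every alternative. All 6 depleted libraries lay above the controls, at about the level of control myotubes. The other kinesin-2 subunits did not share the rise. Kif3c had 57.8, 54.8 and 54.5 CPM in siRNA 1 myoblasts, 46.4, 47.5 and 47.6 CPM in siRNA 2 myoblasts and 58.4, 59.1 and 56.8 CPM in control myoblasts and fell with siRNA 2 (log2 fold change -0.30, SE 0.035, adjusted p = 3.97e-05). Kif3a, the usual partner of Kif3b, had 42.98, 43.3 and 42.1 CPM in siRNA 1 myoblasts, 40.4, 39.00 and 38.01 CPM in siRNA 2 myoblasts and 43.8, 41.9 and 41.6 CPM in control myoblasts and was called lower with siRNA 2 (-0.11, adjusted p = 0.0402), lost without any 1 control or the second or the third siRNA 2 library (adjusted p = 0.0541 to 0.158). Kif5c had 22.1, 22.8 and 20.2 CPM in siRNA 1 myoblasts, 31.2, 29.96 and 29.8 CPM in siRNA 2 myoblasts and 19.03, 18.8 and 17.8 CPM in control myoblasts and rose 1.18-fold with siRNA 1 (log2 fold change 0.23, SE 0.054, adjusted p = 0.00994) and 1.64-fold with siRNA 2 (log2 fold change 0.71, SE 0.053, adjusted p = 8.81e-07). The siRNA 1 call of Kif5c ended without the third control (adjusted p = 0.0516) or the second siRNA 1 library (0.0502), and the excess of siRNA 2 over siRNA 1 was called (0.48, adjusted p = 3.66e-05). On TPM with limma the siRNA 1 value was not called (adjusted p = 0.793). Of the 4 neuron markers 3 stayed under 0.1 CPM, and the list, which is then Tubb3, summed to 157 to 161 CPM in siRNA 1 myoblasts, 203.6 to 210.1 CPM in siRNA 2 myoblasts and 131.5 to 143.9 CPM in control myoblasts. Kif13a had 63.1, 61.2 and 59.2 CPM in siRNA 1 myoblasts, 52.95, 51.6 and 52.1 CPM in siRNA 2 myoblasts and 61.7, 61.6 and 60.8 CPM in control myoblasts and fell with siRNA 2 (log2 fold change -0.23, SE 0.034, adjusted p = 0.000234), the opposite of its change in myotubes. Kif1b had 206, 207 and 199 CPM in siRNA 1 myoblasts, 212, 197 and 203 CPM in siRNA 2 myoblasts and 191, 190.3 and 189.6 CPM in control myoblasts and rose slightly with both (log2 fold changes of 0.10 and 0.11, adjusted p = 0.0383 and 0.0214). Those calls ended for siRNA 1 without any 1 control, the first or second siRNA 1 library or the third siRNA 2 library (adjusted p = 0.059 to 0.145), and for siRNA 2 without the second or the third control or the first or the third siRNA 2 library (0.0536 to 0.0886). Kif5b had 411, 409 and 402 CPM in siRNA 1 myoblasts, 411, 396 and 402 CPM in siRNA 2 myoblasts and 401, 412 and 417 CPM in control myoblasts and did not pass with either siRNA. Kif1c had 287, 283 and 306 CPM in siRNA 1 myoblasts, 241, 255 and 251 CPM in siRNA 2 myoblasts and 254, 263 and 259.9 CPM in control myoblasts and rose with siRNA 1 (log2 fold change 0.18, SE 0.033, adjusted p = 0.00237). Kifc3 was called higher with siRNA 2 and not with siRNA 1, as in myotubes. It had 24.1, 25.1 and 25.3 CPM in siRNA 2 myoblasts and 19.4, 18.5 and 21.1 CPM in control myoblasts. Every alternative kept that call, with log2 fold changes of 0.28 to 0.39. Of the remaining classes, Kif21a had 44.6, 46.5 and 49.9 CPM in siRNA 1 myoblasts, 43.6, 46.7 and 49.3 CPM in siRNA 2 myoblasts and 48.97, 57.3 and 60.02 CPM in control myoblasts and was called lower with siRNA 2 (log2 fold change -0.25, SE 0.075, adjusted p = 0.0285), although the groups overlapped. That call ended without the second or the third control or the first or second siRNA 2 library (adjusted p = 0.0736 to 0.0996). Kif24 was called higher and Kif2a lower with siRNA 2, and both calls held in every alternative. Kif24 had 38.3, 32.9 and 35.2 CPM in siRNA 2 myoblasts and 30.4, 27.8 and 28.3 CPM in control myoblasts. Kif2a had 102, 98.7 and 99.2 CPM in siRNA 2 myoblasts and 111, 109.9 and 115 CPM in control myoblasts. It was called lower with siRNA 2 in myotubes too. Kif21b was called higher with siRNA 2 and Kif7 with siRNA 1, calls that some alternatives did not keep.

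For partners in myoblasts, the shares of all genes were 20.0% called with siRNA 1, 11.6% higher and 8.44% lower. With siRNA 2 they were 33.5%, 17.1% higher and 16.5% lower. Of 13 mitotic partners 6 rose and 0 fell with siRNA 1, and 9 rose and 1 fell with siRNA 2. Plk1 rose the most with each siRNA (log2 fold changes of 0.30 and 0.37, adjusted p = 6.53e-05 and 5.21e-06), with Tpx2, a spindle assembly factor, next for siRNA 1 (0.25) and Cenpe, the kinetochore kinesin, next for siRNA 2 (0.24). Incenp, the scaffold of the chromosomal passenger complex, fell with siRNA 2 to 102, 101 and 103 CPM in siRNA 2 myoblasts, against 153, 152 and 152 CPM in control myoblasts (log2 fold change -0.57, SE 0.026, adjusted p = 1.89e-08). Of 16 cargo partners 4 rose and 1 fell with siRNA 1, and 2 rose and 8 fell with siRNA 2. Trak2, a mitochondrial adaptor, rose with each (log2 fold changes of 0.49 and 0.55, adjusted p = 4.83e-06 and 6.16e-07), and Mapk8ip1 was next (0.35 and 0.45). Trak1, the other adaptor of that pair, fell with each (-0.11 and -0.58, adjusted p = 0.031 and 1.15e-07). Of 19 dynein and dynactin genes 7 rose with siRNA 1, and 6 rose and Dctn2 fell with siRNA 2. With siRNA 2 the share called in either direction is near that of all genes, but by direction it is not. Bicd2 rose with siRNA 1 (log2 fold change 0.30, SE 0.024, adjusted p = 4.38e-06) and with siRNA 2 (log2 fold change 0.32, SE 0.024, adjusted p = 8.96e-07), next to Dynll2 with siRNA 1 (0.25) and Bicd1 with siRNA 2 (0.35).

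The effect of depletion thus differed by stage for the mitotic class, and that difference was tested itself. It was taken as the mean log2 fold change of both siRNAs in myotubes minus that in myoblasts. Of 40 members 18 were called, 3 higher and 15 lower, where 23.4% of all genes were called, 10.6% higher and 12.8% lower. All 12 mitotic members were called lower in myotubes relative to myoblasts, with a median of -0.54 against -0.004 over all genes, and 12 were called whichever library was left out. On TPM with limma 11 were called. All 13 mitotic partners were called in the same direction, with a median of -0.53, Plk1 the furthest (-0.79) and Cenpe next (-0.68). Kif4 differed most among the mitotic members (-1.07, SE 0.051, adjusted p = 1.43e-10), falling in myotubes and rising in myoblasts with each siRNA. Kif15 followed (-0.75, SE 0.089, adjusted p = 4.76e-06). Kif19a had a difference of -1.08 (SE 0.35, adjusted p = 0.0329), but in myoblasts it had only 0.141, 0.2402 and 0.112 CPM in siRNA 1 myoblasts, 0.1404, 0.0652 and 0.111 CPM in siRNA 2 myoblasts and 0.0663, 0.128 and 0.106 CPM in control myoblasts. Its call ended without the first or the third myoblast control, the second siRNA 1 myoblast library, the first or the third siRNA 2 myoblast library, or the second or the third myotube control (adjusted p = 0.0517 to 0.163). Transport members split, with Kif3b (-0.44, adjusted p = 9.22e-07) and Kif5c (-0.34, adjusted p = 0.0047) called lower in myotubes relative to myoblasts and Kif13a (0.29, adjusted p = 0.000155) and Kif3c (0.14, adjusted p = 0.0369) called higher. Kif3c lost its call in 11 of the leave-one-out fits, and Kif21a (0.25, adjusted p = 0.0263) without the second or the third myoblast control or the first or the third myotube control (adjusted p = 0.0557 to 0.107).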

How the data were processed

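The authors deposited 1 table per stage, with an estimated count and a TPM per transcript and library, per the file headers. No source used here gives the quantifier or its annotation, and mm10 and DESeq2 stand in the submitters' processing notes with no role. Transcripts were mapped to GENCODE M21 genes (114200 of 115088 matched; the rest held 0.16% to 0.24% of counts), and estimated counts were summed per gene and rounded. The main test was edgeR 4.0.16 quasi-likelihood in R 4.3.3 (TMM, filterByExpr with a minimum count of 10, Benjamini-Hochberg adjusted p under 0.05 over all genes), fitted per stage on 9 libraries for each siRNA and on all 18 for stages. Transcript usage used edgeR's diffSpliceDGE. Alternatives were DESeq2 1.42.0, limma 3.58.1 on log2(TPM + 1), RLE factors, no filter, a replicate block, library name prefix, the groups compared alone, and each library left out. Scripts were tested on simulated data. siRNA 2 against siRNA 1 was added later. Per the labels the libraries are biological replicates; nothing names separate cultures, so p-values measure spread between these samples. Values per library are given for the 6 most abundant mitotic and transport members and up to 3 largest rises and falls per comparison. Members and lists were chosen with earlier results of these data known. The floor of 3 counts covers counting error only. The SE of a log2 fold change was derived from edgeR's test statistic and includes spread between libraries. RefSeq supplied promoters.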

Additional observations from a re-analysis of the deposited data

Results flagged for a closer look

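The effect of both siRNAs differed between myotubes and myoblasts for 18 members by the test of that difference in edgeR (mean log2 fold change of both siRNAs in myotubes minus that in myoblasts). Among mitotic kinesins the difference was -1.07 for Kif4, -0.75 for Kif15, -0.65 for Kif18a, -0.61 for Kif22 and -0.57 for Kif20b. It was -0.54 for Kif11 and Kif2c, -0.52 for Kif20a and Kif23, -0.51 for Kif14 and Kif18b and -0.41 for Kifc1. Elsewhere it was -1.08 for Kif19a, -0.44 for Kif3b, -0.34 for Kif5c, 0.14 for Kif3c, 0.25 for Kif21a and 0.29 for Kif13a.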

How the results depend on the processing

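Of 130 called fold changes of members, 94 kept their call in every alternative, 36 lost it in at least 1, and 0 turned round. Most losses outside the leave-one-out fits came on TPM with limma, where the called kinesins in siRNA 1 myoblasts numbered 5 (3 mitotic, 1 transport), the transport members in siRNA 1 myotubes 0, and those of the stage difference 2; the cause was not tested. Transcript usage with siRNA 2 in myoblasts gave 1 member at a minimum count of 30. With 1 library left out, called kinesins, mitotic and transport members numbered 6 to 12, 2 to 6 and 3 to 5 for siRNA 1 myoblasts, and 15 to 20, 7 to 9 and 6 to 7 for siRNA 2 myoblasts. In myotubes they numbered 16 to 21, 12 to 12 and 2 to 6 for siRNA 1, and 18 to 21, 11 to 12 and 3 to 5 for siRNA 2. For differentiation they were 36 to 37, 12 to 12 and 13 to 13, and for the stage difference 15 to 18, 12 to 12 and 3 to 4. Usage counts ran from 0 to 1 for the siRNA comparisons and from 4 to 6 on differentiation. Replicate numbers were not taken as pairs, since not every same-numbered pair correlated over 0.1: such libraries correlated at -0.151 to 0.303 in myoblasts (6 of 9 pairs over 0.1) and at -0.101 to 0.142 in myotubes (2 of 9). Myoblast libraries did share structure by library name prefix: every pair with a shared prefix correlated positively (0.0335 to 0.303) and every other pair negatively (-0.374 to -0.0545). Myotube libraries showed it more weakly. There 12 of 13 pairs with a shared prefix correlated over 0 (-0.0277 to 0.142), and 1 of 14 other pairs did (-0.2 to 0.00698). With the prefix as a term the called kinesins numbered 15 and 25 in myoblasts and 25 and 23 in myotubes. With the replicate block the 12 mitotic calls of each myotube comparison stood, called kinesins numbered 21 and 22 in myotubes, 13 and 24 in myoblasts, 37 on differentiation and 19 for the stage difference, and of 130 calls only Kif1c with siRNA 1 in myotubes was lost (adjusted p = 0.0575). Fitting the compared groups alone gives no value for the stage difference. Members at a few reads per library, such as Kif28 and Kif17, are limited by depth.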
